A study of Arabidopsis thaliana with 8 samples.

Results

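The CBF and DDF genes of Arabidopsis thaliana encode a small branch of AP2/ERF transcription factors: CBF1 (AT4G25490), CBF2 (AT4G25470), CBF3 (AT4G25480, also DREB1A), CBF4 (AT5G51990), DDF1 (AT1G12610) and DDF2 (AT1G63030). They were taken as the probes whose RefSeq transcript belongs to these 6 loci. Each locus had 1 probe, so 6 of the 43603 non-control probes and 6 of the 25410 loci with a probe are described. The DDF2 probe carries the accession of only 1 of the transcripts listed for that gene. RNA from 10 cm stems of soil-grown Col-0 plants was hybridised to single-colour Agilent arrays. Plants of both groups grew at 23 °C with 16 h light and 8 h dark. Controls were 4 arrays of plants mutant for nst1-1 and nst3-1, which lack the NAC factors that start secondary walls in fibers. A further 4 arrays, called transgenic, held plants of that double mutant with the transgene NST3pro:CEF2-VP16:HSP. Both groups thus carry the nst1-1 and nst3-1 mutations. The NST3 promoter is active in fibers, while the RNA came from stem tissue as a whole. CEF2 is called ERF035 in the series' design text; it is itself an AP2/ERF factor, here joined to the viral activation domain VP16. According to its title the series asks how such factors give thickened primary walls to fibers of nst1 nst3, and the comparison is transgenic against nst1 nst3 stems.

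CBF proteins bind the C-repeat/dehydration-responsive element in the promoters of cold-regulated (COR) genes and switch those genes on when temperature drops, which raises freezing tolerance. CBF1, CBF2 and CBF3 are induced within minutes by cold and also respond to the clock, to light and, for CBF2, to mechanical stimuli. CBF4 is better known from drought and abscisic acid responses, and DDF1 and DDF2 from salt stress, where DDF1 activates a gibberellin-inactivating enzyme and so restrains growth. In the RefSeq gene table of assembly TAIR10.1, CBF2, CBF3 and CBF1 follow each other in this order on chromosome 4 with only noncoding RNA genes between them. CBF4 lies on chromosome 5 and both DDF genes on chromosome 1. CBF1, CBF2 and CBF3 are close in sequence, and whether their probes bind each other's transcripts was not tested.

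Over the 8 arrays the 75th percentile of processed signal ran from 2344 to 3642 units, and 30289 to 32382 probes per array were well above background. Each genotype had a slide of its own, so effects of slide and of genotype cannot be told apart. The arrays of a group are not labelled as separate plants, and the spread behind the p-values, that between these samples, may therefore be technical. Of 10 marker genes of stem tissues all 10 were measured, 8 called higher and 1 lower in the transgenic stems beside 29.5% and 24.8% of all tested genes, or 1 higher and 2 lower with scaling on spike-in probes. Of 10 markers of other organs 2 passed the filter on dim probes, PI at -1.10 ± 0.56 (not called) and VGD1 at -1.73 ± 0.12 (called lower) (log2 difference, SE, n = 4 per group); their part in the results was not tested. At the ERF035 locus, AT3G60490, the transgenic stems exceeded the controls by 7.72 ± 0.68 on the log2 scale (SE, n = 4 per group). In bulk stem RNA, fewer expressing cells and less RNA per cell cannot be told apart.

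Of the 6 genes, 5 fell in the transgenic stems and CBF3 did not pass the test. Several of their transgenic values were at the scale's floor or not above background. The floor shortens the falls, while normexp background correction made all 5 falls smaller. The sizes of the falls are thus uncertain and set no full order among the 5. Across all 19609 tested genes 54.2% were called (limma, Benjamini-Hochberg adjusted p under 0.05), 24.8% lower and 29.5% higher; with scaling on spike-in probes the split was 7839 lower and 2059 higher in place of 4858 and 5776. The 5 genes fell at least 8-fold, as did 1.48% of all tested genes. With normexp background correction CBF1 (-1.86), CBF2 (-2.66) and CBF4 (-2.21) fell less far than that. So did CBF1 without control array 1 (-2.65) or 4 (-2.32) and without transgenic array 1, 3 or 4 (-2.99 each). All 6 genes passed the filter on dim probes, since each was well above background on all 4 control arrays. The median difference of the 6 was -3.74 log2 units, against 0.03 over all tested genes. None of the 5 genes that fell had overlapping groups, while 50.7% of all tested genes had no overlap, 22.7% with the transgenic stems lower and 27.9% with them higher. For each of the 5 an exact permutation test (two-sided, 70 possible assignments) gave p = 0.0286, the smallest that 4 against 4 arrays allow. Every gene without overlap gives this p-value, so it adds nothing to the lack of overlap.

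**Figure D1:**
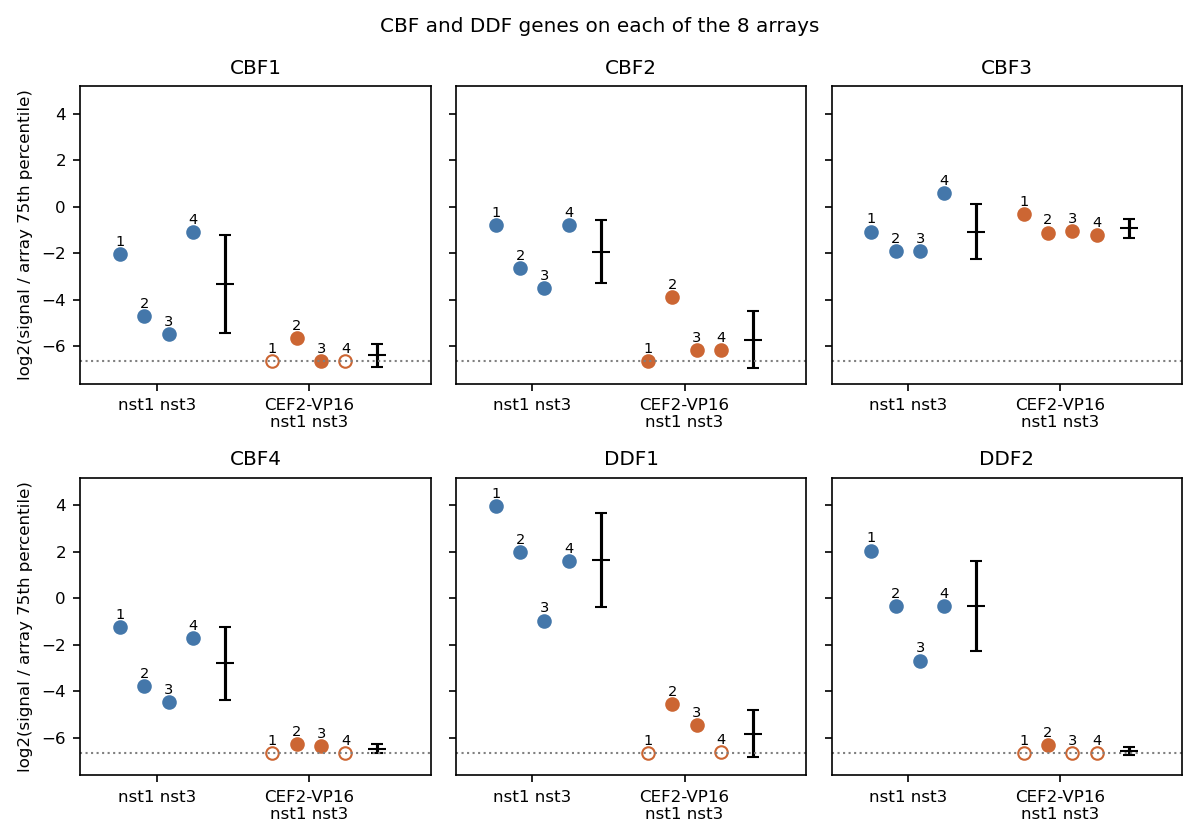
Level of each CBF and DDF gene, as log2 of the processed signal over the array's 75th percentile, on control and transgenic arrays 1 to 4. Filled points were well above background, open points were not, the dotted line is the floor of the scale at -6.64, and bars give the mean ± SD; the groups overlap for CBF3 alone.

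DDF1, the salt-induced activator, went from well measured to near background. Its processed signal read 56435, 11034, 1720 and 11152 units on control arrays 1 to 4, against 8.09, 99.6, 59.0 and 24.6 units on the transgenic ones, where 2 arrays were above background. As log2 of the signal relative to the 75th percentile of its array, the controls read 3.96, 1.99, -0.95 and 1.61, and the transgenic arrays -6.64, -4.56, -5.47 and -6.62. Control array 1 was highest and control array 3 lowest, a spread of 30.1-fold within the group, yet every transgenic array lay below every control array. The gene fell by 7.48 ± 0.98 log2 units (SE, n = 4 per group; limma adjusted p = 0.000535), a 178-fold difference. Only 4 of the 19609 tested genes had a lower value. Without control array 1 the fall was -6.71 and without control array 3 it was -8.34. With normexp background correction it was -6.01. The floor was reached on 1 transgenic array, and with a floor of 0.001 the difference was -7.98.

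DDF2, the close relative of DDF1, showed the same order of control arrays. It read 2.06, -0.32, -2.68 and -0.35 on control arrays 1 to 4, against -6.64, -6.30, -6.64 and -6.64 on the transgenic ones. Among the transgenic arrays 1 was well above background and 3 were at the floor of the scale, which shortens its fall. It fell by 6.23 ± 0.84 log2 units (SE, n = 4 per group; limma adjusted p = 0.00062), which is 75.3-fold. With a floor of 0.001 of the 75th percentile in place of 0.01 the difference was -7.32, and with normexp background correction it was -4.61. It was -5.44 without control array 1 and -7.02 without control array 3.

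CBF2, one of the rapidly cold-induced activators, was the only falling member well above background on all 8 arrays. It read -0.77, -2.63, -3.49 and -0.79 on control arrays 1 to 4, against -6.64, -3.89, -6.17 and -6.15 on the transgenic ones. Transgenic array 2 stood above the other 3 and only slightly below the lowest control. The gene fell by 3.79 ± 0.80 log2 units (SE, n = 4 per group; limma adjusted p = 0.00485), 13.9-fold, and the difference was -4.40 without transgenic array 2. Transgenic array 1 lay at the floor, and with a floor of 0.001 the difference was -3.90. With normexp background correction it was -2.66.

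CBF4, the member tied to drought and abscisic acid, read -1.24, -3.77, -4.48 and -1.71 on control arrays 1 to 4, against -6.64, -6.27, -6.36 and -6.64 on the transgenic ones. Control arrays 1 and 4 were high and 2 and 3 low, and the transgenic arrays all lay near the floor, 2 of them above background. The difference was -3.68 ± 0.69 log2 units (SE, n = 4 per group; limma adjusted p = 0.00275), 12.8-fold. The floor, reached on 2 transgenic arrays, shortens the fall. It read -4.24 with a floor of 0.001 and -2.21 with normexp background correction.

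CBF1 gave the least secure of the 5 falls. It read -2.05, -4.69, -5.48 and -1.07 on control arrays 1 to 4, against -6.64, -5.64, -6.64 and -6.64 on the transgenic ones, where 2 arrays were above background. Control array 3 and transgenic array 2 differed by little, although the groups did not overlap. The gene fell by 3.07 ± 0.94 log2 units (SE, n = 4 per group; limma adjusted p = 0.0241), 8.40-fold. The floor, reached on 3 transgenic arrays, shortens the fall, which read -3.62 with a floor of 0.001. The call was lost without control array 1 (-2.65, adjusted p = 0.0654) and without transgenic array 1, 3 or 4 (-2.99, adjusted p = 0.0566 to 0.0577). It was also lost with normexp background correction (-1.86, adjusted p = 0.0504) and with no filter on dim probes (adjusted p = 0.0579). Without control array 3 the difference was -3.79 and without control array 4 it was -2.32.

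CBF3, which lies between CBF2 and CBF1 on chromosome 4, kept a signal on every array. It read -1.07, -1.90, -1.90 and 0.59 on control arrays 1 to 4, against -0.32, -1.11, -1.06 and -1.22 on the transgenic ones. Control array 4 was the highest of all 8, and the other 3 control arrays lay around or below the transgenic ones. The difference was 0.14 ± 0.54 log2 units (SE, n = 4 per group), with a 95% interval from -1.11 to 1.40 and a limma adjusted p of 0.84. A change of up to 1 log2 unit in either direction thus lies within the interval. The sign turned without control array 2 or 3 (-0.13 for each), without transgenic array 1 (-0.06), with array weights (-0.43) and with scaling on spike-in probes (-0.30). Without control array 4 the difference rose to 0.70 (limma adjusted p = 0.0891). No fit gave a call. The coding genes on either side of the cluster had small differences, with -0.29 ± 0.16 for ABCB28 (not called, adjusted p = 0.148) and 0.39 ± 0.08 for RS40 (adjusted p = 0.0054; SE, n = 4 per group). These neighbours were chosen after their values were seen.

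**Figure D2:**
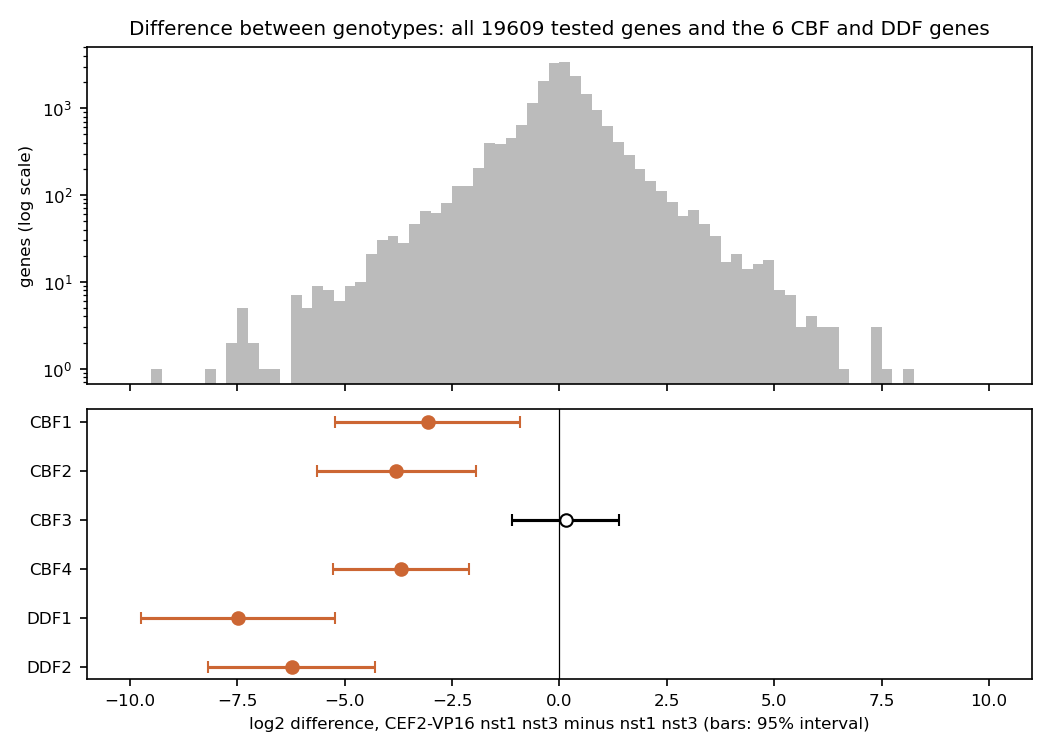
Upper panel, histogram of the log2 difference between transgenic and control stems over 19609 genes with counts on a log scale; lower panel, the same difference for the 6 CBF and DDF genes with 95% intervals (filled, called; open, not called). DDF1 and DDF2 lie at the low end of all genes, CBF1, CBF2 and CBF4 between -3.07 and -3.79, and CBF3 at 0.14.

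To compare the members with each other, the log ratio of each pair was taken within every array and compared between the groups by an exact two-sided permutation test. All 15 pairs were tested, a comparison chosen after the values had been seen. The pairs share genes, so they are not separate tests. Their p-values are therefore no further evidence beyond the values of the single genes. The ratio of CBF3 to each of the other 5 differed between the genotypes, by 3.22 log2 units for CBF1, 3.94 for CBF2, 3.83 for CBF4, 6.38 for DDF2 and 7.62 for DDF1 (exact p = 0.0286 each; 0.0390 adjusted over the 15 pairs). The ratios of CBF1, CBF2 and CBF4 to DDF1 and DDF2 also differed, by 2.44 to 4.40 log2 units (exact p = 0.0286; adjusted p = 0.0390). All 5 genes had transgenic values on the floor on at least 1 array. These differences thus depend on how far the controls lay above the floor. For CBF1 and CBF4 against the DDF genes they do not show which gene fell further. CBF2 was well above background on all 8 arrays. With a floor of 0.001 its ratio to DDF1 changed by 4.08 and to DDF2 by 3.42 log2 units. Among CBF1, CBF2 and CBF4 no pair passed, with differences of 0.72 ± 0.56 for CBF1 over CBF2, 0.61 ± 0.43 for CBF1 over CBF4 and -0.11 ± 0.57 for CBF2 over CBF4 (SE, n = 4 per group). The DDF1 to DDF2 ratio changed by -1.24 ± 0.45 and did not pass (exact p = 0.0571, adjusted p = 0.0714). With the lower floor of 0.001 the same 11 pairs passed.

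The members also varied widely among the control arrays. The SD over the 4 control arrays was 1.18 log2 units for CBF3, the least variable of the 6, and 2.02 for DDF1, against a median of 0.21 over all tested genes. The share of tested genes with a larger control SD ran from 0.52% for CBF1 to 2.79% for CBF3. Control array 3 was lowest for CBF1, CBF2, CBF4, DDF1 and DDF2. The highest control array was array 4 for CBF1 and CBF3 and array 1 for CBF2, CBF4, DDF1 and DDF2, although arrays 1 and 4 were nearly level for CBF2. On the transgenic arrays the SD ran from 0.17 for DDF2 to 1.24 for CBF2, with several values held at the floor.

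**Figure D3:**
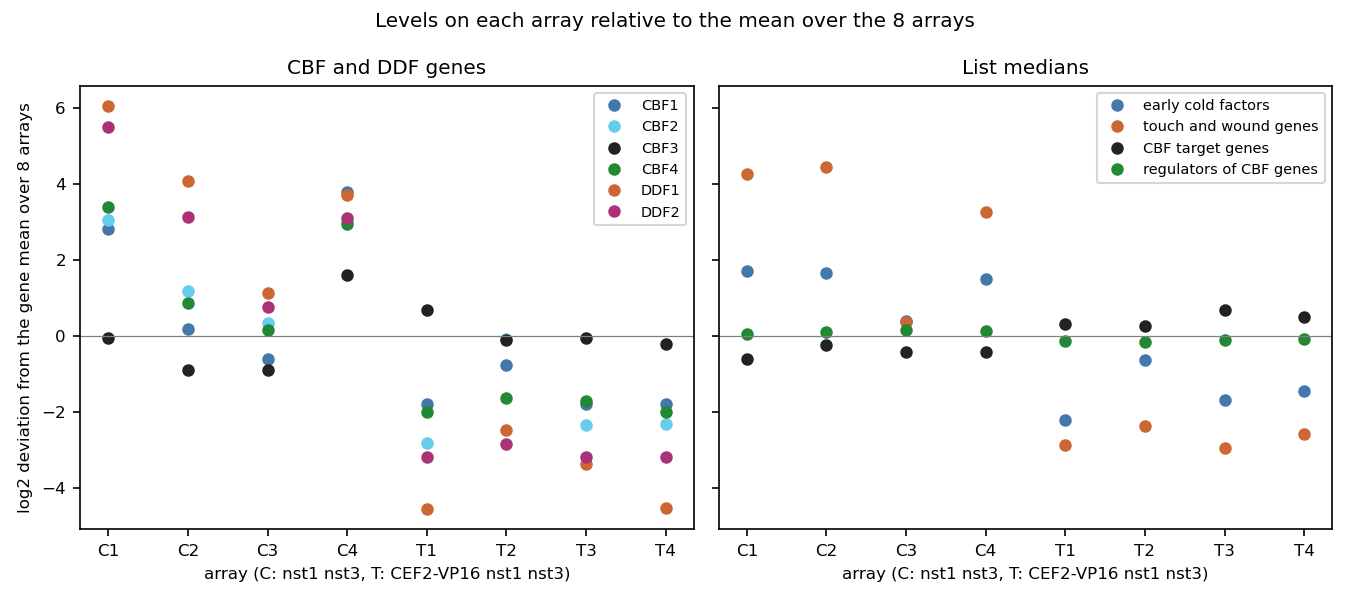
Level on each array minus the mean over the 8 arrays, in log2 units, for the 6 genes (left) and as the median of 4 gene lists (right); C1 to C4 are control and T1 to T4 transgenic arrays. The touch and wound list has its lowest control median on array 3 (0.36), as do the early cold factors (0.39).

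Patterns were compared as the root mean square difference over the 8 arrays after each gene's own mean was subtracted, a description that the gap between the genotypes dominates. Within the family CBF1 was nearest to CBF4 (0.61 log2 units) and DDF1 to DDF2 (0.83), while CBF3 was at least 1.81 from every other member. Outside the family the nearest genes to CBF2 were NUDT4 (0.26), CAF1b (0.36), a deadenylase subunit, and AT4G27657 (0.40). Those nearest to CBF4 were AT3G62260 (0.40), the zinc-finger gene ZF2 (0.44) and AT1G18740 (0.45). DDF1 was nearest to CYP94B3 (0.49), whose enzyme breaks down jasmonoyl-isoleucine, AT4G27654 (0.73) and CML37 (0.75). DDF2 was nearest to AT5G52020 (0.18), AT1G33760 (0.39) and BPS3 (0.58). AT5G52020 was at the floor on the same transgenic arrays as DDF2, and AT1G33760 on some of them, which by itself makes these distances smaller. For CBF1, AT5G63130 (0.66) and AT4G39670 (0.68) followed CBF4. The 3 genes nearest to CBF3 were AT3G52790 (0.34), ROT4 (0.42) and CSLG2 (0.45), of which AT3G52790 and ROT4 were at the floor on 3 control arrays.

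Regulators that act on CBF expression or protein were lower more often than higher. Of 20 measured regulators 2 were higher and 10 lower, with a median of -0.30, beside 29.5% and 24.8% of all tested genes. ICE1, a MYC-type activator named as an inducer of CBF expression, read 0.19 ± 0.11 and was not called (limma adjusted p = 0.165), nor was its relative ICE2 at 0.37 ± 0.15 (0.0661; SE, n = 4 per group). CAMTA3, a calmodulin-binding activator of CBF2, averaged 3.26 ± 0.14 in control and 2.14 ± 0.13 in transgenic stems (SD, n = 4 per group), and the groups did not overlap. It fell by 1.12 ± 0.10 log2 units (limma adjusted p = 0.000129). MPK3, a kinase that marks ICE1 for degradation, fell by 2.74 ± 0.19 (adjusted p = 5.15e-05), and PUB25, a ubiquitin ligase that removes MYB15, by 0.90 ± 0.13 (adjusted p = 0.000943). The repressor MYB15 was well above background on all 4 control arrays and on no transgenic array. Its control mean was 18.8-fold above the transgenic arrays, with dim signals there raised to the lowest signal well above background (limma adjusted p = 0.0262). With normexp background correction the difference was -2.74 log2 units, so 18.8-fold is not a lower limit. Control array 3 read -6.64 for MYB15, at the level of the transgenic arrays. With 1 array left out at a time the call was lost in 7 of 8 fits, while without control array 3 the gene stayed called at -5.69; it read -3.41 without control array 2. PIF3, a light-labile repressor of CBF genes, and CRLK1, a cold-responsive receptor kinase, rose by 0.49 ± 0.10 and 0.39 ± 0.09; with scaling on spike-in probes they read 0.04 and -0.06 and neither was called.

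Clock components, which gate the CBF genes over the day, gave calls in both directions. Of 14 measured 3 were higher and 6 lower, with a median of -0.14, beside 29.5% and 24.8% of all tested genes. The morning factors CCA1 and LHY, which bind and activate the CBF genes, fell by 1.24 ± 0.22 and 1.57 ± 0.21 log2 units (SE, n = 4 per group; limma adjusted p = 0.00222 and 0.000619). RVE8, a related MYB factor, fell by 1.63 ± 0.17, and LNK1, a coactivator of RVE8, by 0.98 ± 0.15. The evening gene LUX rose by 1.60 ± 0.23 and PRR5, a repressor of CBF genes, by 1.39 ± 0.28. ELF3, a partner of LUX, rose by 0.52 ± 0.15, with the call lost without transgenic array 2 or 3 and with spike-in scaling (0.07). The sources used here do not give the time of day of each harvest, and its part in these differences was not tested.

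Other transcription factor genes that cold induces as early as the CBFs fell with them. Of 13 measured 11 were lower and 1 higher, with a median of -2.96, beside 24.8% lower and 29.5% higher over all tested genes. The groups were apart for 9 of the lower ones, as for 22.7% of all tested genes in that direction. The largest falls were those of DEAR1 (-3.86 ± 0.73), a DREB-like repressor, ERF6 (-3.78 ± 0.46), ZAT10 (-3.74 ± 0.56) and ZAT12 (-3.35 ± 0.78), the last 2 being zinc-finger repressors (log2 units, SE, n = 4 per group; limma adjusted p from 0.000383 to 0.0076). ZAT12 read 4.70, 4.66, 1.97 and 4.68 on control arrays 1 to 4, against -0.58, 2.20, 0.24 and 0.76 on the transgenic ones. Control array 3 and transgenic array 2 overlapped for ZAT12, and without control array 3 its difference was -4.03 and that of DEAR1 -4.46. CRF2, a cytokinin response factor, rose by 0.46 ± 0.12, a rise that vanished with spike-in scaling (0.01).

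Genes that the CBF proteins are known to activate moved mostly the opposite way. Of 16 measured targets 10 were higher and 2 lower, with a median of 0.99, beside 29.5% higher and 24.8% lower over all tested genes. The groups were apart for 9 of the higher ones, as for 27.9% of all tested genes in that direction. RD29A, the standard reporter of the C-repeat element, read 0.00, 0.71, -0.93 and 0.35 on control arrays 1 to 4, against 4.52, 3.74, 4.44 and 4.34 on the transgenic ones. All transgenic arrays lay far above the controls, a rise of 4.23 ± 0.35 log2 units or 18.7-fold (SE, n = 4 per group; limma adjusted p = 8.89e-05). COR15A, which protects chloroplast membranes, rose by 2.85 ± 0.54, the dehydrin gene LTI30 by 1.71 ± 0.15 and the membrane protein gene COR413-PM1 by 1.70 ± 0.16. ERD7 fell by 2.27 ± 0.41 and the dehydrin gene ERD10 by 0.66 ± 0.21. The ERD10 call was lost in 7 of the 8 fits without 1 array. With scaling on spike-in probes 8 targets were higher and 4 lower.

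**Figure D4:**
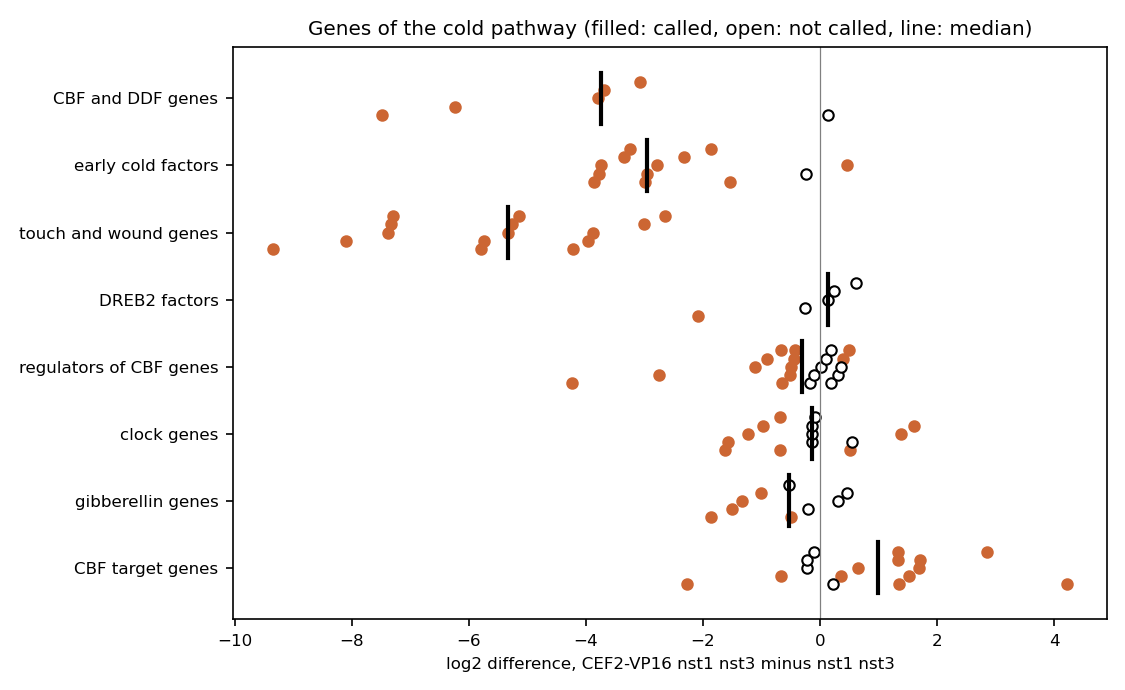
Log2 difference between transgenic and control stems for each measured gene of the CBF and DDF family and of 7 lists of the cold pathway (filled, called; open, not called; line, list median). The early cold factors lie mostly below 0 with a median of -2.96, while the CBF target genes have a median of 0.99.

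The DREB2 genes, whose products bind the same element under drought and heat, mostly did not pass the test. Of 5 measured 1 was called, in the lower direction, beside 24.8% lower and 29.5% higher over all tested genes. This gene, DREB2A, fell by 2.08 ± 0.48 log2 units (SE, n = 4 per group; limma adjusted p = 0.00698). It read 3.11, 1.40, 1.39 and 3.05 on control arrays 1 to 4, against -0.35, 0.74, 0.36 and -0.14 on the transgenic ones. Control arrays 1 and 4 were again the high ones, and the groups did not overlap. DREB2B, DREB2C, DREB2D and DREB2F read 0.13 ± 0.23, 0.25 ± 0.52, 0.62 ± 0.40 and -0.25 ± 0.13 and were not called. Without control array 2 DREB2D (1.00) and DREB2F (-0.36) were called, and DREB2B and DREB2C turned sign (-0.04 and -0.24), as they did with spike-in scaling (-0.32 and -0.20).

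Of the listed gibberellin 2-oxidase and DELLA repressor genes, 5 of 9 measured were lower and none higher, with a median of -0.53, beside 24.8% and 29.5% of all tested genes. Whether each of them acts downstream of CBF or DDF proteins was not tested. GA2OX7, the gibberellin 2-oxidase gene that DDF1 is known to activate, did not pass the filter on dim probes. The 2-oxidase gene GA2OX2 fell by 1.32 ± 0.14 log2 units and RGL1, which encodes a DELLA growth repressor, by 1.01 ± 0.24 (SE, n = 4 per group; limma adjusted p = 0.000219 and 0.0093). GA2OX8 was above background on no transgenic array. Its control mean was 3.52-fold above those arrays, with dim signals raised as for MYB15 (limma adjusted p = 0.0388). GA2OX6 fell by 1.49 ± 0.53 (limma adjusted p = 0.0439). The GA2OX8 call was lost in 6 and the GA2OX6 call in 7 of the 8 fits without 1 array, and 3 to 5 genes of the list were called in them. Without control array 2 GA2OX8 read -1.21 log2 units, so the 3.52-fold is not a lower limit.

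Genes induced by touch and wounding, a list that holds several of the largest falls already known from these arrays, were lower throughout. All 15 measured were called lower, with a median of -5.33, beside 24.8% of all tested genes; JAZ10 lost its call in 6 of the 8 fits without 1 array. RRTF1, an ERF factor of redox responses, read -9.35 ± 1.5 and JAZ7, a jasmonate repressor, -8.10 ± 1.49 log2 units. WRKY40 and the lipoxygenase gene LOX4 fell by 7.37 ± 1.16 and 7.33 ± 0.99 (SE, n = 4 per group; limma adjusted p from 0.000619 to 0.0026 for the 4 genes). The log2 of the summed signal ratio of the list was 8.70, 8.35, 6.56 and 8.06 on control arrays 1 to 4, against 3.16, 4.49, 3.22 and 4.04 on the transgenic ones. Control array 3 was the lowest control and transgenic array 2 the highest transgenic array for this sum, the same arrays that lay nearest to the other group for CBF1, CBF2, CBF4, DDF1 and DDF2. Without control array 3 RRTF1 read -10.97, JAZ7 -9.77, WRKY40 -8.59 and LOX4 -8.43, and without control array 1 RRTF1 read -8.62 and JAZ7 -7.23. The part of handling or wounding at harvest in the fall of the CBF and DDF genes was not tested.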

How the data were processed

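Stem RNA (200 ng) was labelled with Cy3 and read on Agilent arrays, per the labels' protocols. The deposited signal is an intensity read by Agilent Feature Extraction 11.5.1.1 with a TAIR10 design, per the file headers, whereas 9.1.3.1 stands in the submitters' processing notes. The processed signal is corrected for background by that program and is not normalized between arrays. The value table deposited by the authors is on a natural log scale, each value the log of the processed signal minus 7.39 (control) or 7.15 (transgenic), and served as an alternative.

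Values are log2 of the processed signal over the array's 75th percentile, floored at 0.01 after scaling. Outlier spots were left out, and probes were kept if 4 or more of the 8 arrays had them well above background. Accessions named the loci through the RefSeq gene table of TAIR10.1 (34348 of 43603 probes); the brightest probe stood for a gene. Genes were compared with lmFit and eBayes of limma 3.58.1 in R 4.3.3 without covariates. The fold given for MYB15 and GA2OX8 sets the control mean against the higher of the dim probe's signal and the lowest signal well above background on each transgenic array. It takes no account of the spread between arrays. The code was tested on simulated data. The members, lists and tests were chosen with earlier results of these data known. Named from the lists were all genes of lists with up to 8 measured and otherwise the 4 largest called rises and falls, with the 3 nearest patterns of each member; ICE1, ICE2, JAZ10 and GA2OX7 were added after their values were seen. Alternatives changed background correction (normexp on the median signals, as no mean signal was given), scaling, values, filter, floor, probe choice, moderation, weights, the replicate block and the arrays kept. No sequences of these genes were used here. The number of arrays limits the precision.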

Additional observations from a re-analysis of the deposited data

Results flagged for a closer look

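On the transgenic arrays, CBF1 read -5.64 on array 2 and DDF2 read -6.30 on array 2, each set apart because the other 3 arrays of the group all lay at the floor of the scale. A value is singled out when its gap to the nearest other array exceeds Dixon's 95% critical share of the group's range. The 6 genes gave 12 groups of 4 arrays, and chance alone singles out about 1 in 20 such groups. With 3 of 4 values at the floor, any signal above it meets this criterion.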

How the results depend on the processing

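Over 21 alternatives the 6 genes gave 122 values, of which 111 kept their direction and their side of the threshold. CBF2, CBF4, DDF1 and DDF2 were called lower in all that were run for them (of the 6 only CBF2 and CBF3 were above background on all 8 arrays); leaving out 1 array gave -4.40 to -3.41, -4.24 to -3.16, -8.34 to -6.71 and -7.02 to -5.44. Without 1 array CBF1 read -3.79 to -2.32 and CBF3 -0.13 to 0.70. CBF1 was not called with normexp (-1.86) or without the dim-probe filter (-3.07), and CBF3 turned sign with spike-in scaling (-0.30) and array weights (-0.43), never called. Normexp, whose offset lifts dim signals, also gave CBF2 -2.66, CBF4 -2.21, DDF1 -6.01 and DDF2 -4.61.

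Transgenic arrays exceeded controls by 0.38 to 0.55 log2 units at the spike-in probes; scaling on them moved the median gene from 0.03 to -0.40 and gave 2059 higher and 7839 lower genes against 5776 and 4858. The authors' values gave 2981 lower genes, and leaving out 1 array 4105 to 5434. With spike-in scaling 0 regulators and 0 early cold factors were higher, 4 CBF targets and 2 DREB2 genes lower. The authors' values gave 1 higher and 5 lower regulators, 0 higher early cold factors and 1 lower target. Without the filter 1 target and 3 gibberellin genes were lower. Array weights called 1 DREB2 gene higher and 2 lower. Without 1 array 1 to 2 targets, 1 to 2 DREB2 genes and 3 to 5 gibberellin genes were lower and 0 to 1 DREB2 genes higher. Among named list genes CRLK1 turned sign with spike-in scaling (-0.056), as did DREB2B (-0.32; -0.044 to 0.34 without 1 array) and DREB2C (-0.20; -0.11 with array weights, -0.24 to 0.70 without 1 array). Replicate numbers did not pair the arrays: same-numbered arrays correlated at -0.40 to 0.16 after group means were removed, and 1 of 4 control arrays was closest to its own number. With the replicate block 1 target and 3 gibberellin genes were lower, and CBF1 stayed called (adjusted p = 0.0453). The cause of these shifts was not tested. Dim signal limits CBF1, CBF2, CBF4, DDF1 and DDF2, each with at least 1 transgenic array at the floor; a floor of 0.001 gave -3.62, -3.90, -4.24, -7.98 and -7.32.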
